A study of Drosophila melanogaster with 2 samples.

Results

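The strongest 500 peaks of Bgb-eGFP were examined, a set chosen by ranking the conservative peak list by its deposited signal and keeping the first 500 of 4488 peaks. Chromatin immunoprecipitation followed by sequencing (ChIP-seq) had been carried out on whole Drosophila melanogaster embryos aged 0 to 24 h, in 2 biological replicates that form the only group. The flies carried a transgene in which Bgb (Big brother) is fused to enhanced green fluorescent protein. The labels name an antibody against GFP in one entry and Bgb in another, and do not state which promoter drives the transgene. No control library was analysed here. Whole embryos of this age mix every embryonic tissue and stage, so a peak cannot be assigned to a cell type.

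Bgb is a fly homolog of CBF-beta, the subunit that does not itself contact DNA and that stabilises Runt domain transcription factors on their recognition sequence. Promoters of broadly expressed fly genes are known to lack a TATA box and to carry instead short sequences bound by BEAF-32, a boundary protein that recognises CGATA, by DREF, a regulator of replication and growth genes that recognises TATCGATA, or by M1BP, which recognises GGTCACAC. Promoters of regulated developmental genes more often carry a TATA box or an Initiator. A divergent promoter is a pair of genes that start close to each other and are read in opposite directions.

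The sequences under 11 summits are examples picked by the motifs they hold or lack, so they do not show how common a motif is. Each runs from 50 bp before to 50 bp after the summit, 101 bases, read 5′ to 3′ on the strand of the gene with the nearest protein-coding transcription start site (TSS). Coordinates and letters are those of dm6 (RefSeq Release 6). Capitals mark CGATAA or CGATAG or TATCGATA or GGTCACAC on either strand, and in the window of CG11964 also a Runx match. The windows of eIF3f1 and CG15356 hold a Runx match too, which is not marked. CGATAG read from the other strand is CTATCG, and overlapping matches run together. The sequences were taken from the highest ranks of each class, leaving out 1 chromosome arm.
Creld, rank 4, chr2L:102297-102397, plus strand: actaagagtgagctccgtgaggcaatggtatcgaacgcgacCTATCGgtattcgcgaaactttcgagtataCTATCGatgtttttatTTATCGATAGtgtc
Hsp110, rank 18, chr3L:14036927-14037027, plus strand: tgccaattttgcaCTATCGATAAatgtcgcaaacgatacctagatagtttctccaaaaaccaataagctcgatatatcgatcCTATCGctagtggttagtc
eIF3f1, rank 26, chr3R:4714173-4714273, minus strand: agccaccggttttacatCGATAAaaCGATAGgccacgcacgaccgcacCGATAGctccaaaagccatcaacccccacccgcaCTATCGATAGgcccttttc
Daxx, rank 5, chr2L:6480833-6480933, plus strand: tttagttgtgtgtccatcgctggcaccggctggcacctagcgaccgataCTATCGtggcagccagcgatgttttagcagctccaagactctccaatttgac
Capr, rank 6, chr3L:18673166-18673266, minus strand: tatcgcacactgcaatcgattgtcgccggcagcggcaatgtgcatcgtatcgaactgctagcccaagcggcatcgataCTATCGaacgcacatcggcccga
foi, rank 45, chr3L:8525182-8525282, plus strand: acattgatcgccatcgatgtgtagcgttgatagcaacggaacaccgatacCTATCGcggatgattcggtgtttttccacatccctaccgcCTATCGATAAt
CG15356, rank 47, chr2L:1980763-1980863, minus strand: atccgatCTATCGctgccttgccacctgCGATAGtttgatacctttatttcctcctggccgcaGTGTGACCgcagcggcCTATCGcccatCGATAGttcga
CrebB, rank 54, chrX:18370875-18370975, plus strand: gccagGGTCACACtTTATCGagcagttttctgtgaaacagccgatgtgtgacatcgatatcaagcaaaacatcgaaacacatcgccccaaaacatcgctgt
CG11964, rank 15, chr3R:8945004-8945104, minus strand: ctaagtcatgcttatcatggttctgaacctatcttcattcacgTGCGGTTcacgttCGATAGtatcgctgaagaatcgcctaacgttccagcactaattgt
DhpD, rank 33, chr3R:4229254-4229354, minus strand: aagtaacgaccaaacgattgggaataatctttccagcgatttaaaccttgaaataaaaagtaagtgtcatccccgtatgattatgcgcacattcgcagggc
CG13096, rank 52, chr2L:8511871-8511971, minus strand: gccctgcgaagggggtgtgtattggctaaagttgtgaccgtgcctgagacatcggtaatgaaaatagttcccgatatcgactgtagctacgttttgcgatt

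Creld, Hsp110 (a chaperone) and eIF3f1 (a subunit of translation initiation factor 3) were the strongest of these with CGATAA or CGATAG on both sides of the summit. They had 4, 3 and 5 matches, with overlapping matches counted separately. Daxx, a histone chaperone, and Capr, an RNA-binding protein, held 1 match each although their signals, 1641 and 1615, ranked above those of Hsp110 (1292) and eIF3f1 (1230). The window of foi, a zinc transporter, shows CGATAA overlapping TATCGATA. CG15356 and CrebB, the fly CREB transcription factor, were the strongest with GGTCACAC. DhpD, an enzyme of pteridine metabolism, and CG13096 held none of the 9 motifs searched, with signals of 1182 and 1013.

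Nearly every one of the strongest peaks lay at a promoter, and most lay directly before the start of the gene. A TSS of any gene lay within 1000 bp of the summit at 494 of 500 peaks (98.8%, exact 95% interval 97.4 to 99.6), beside 87.1% of the 3988 remaining peaks. Within 100 bp the shares were 90% and 64.8%, a difference of 25.2 percentage points (Newcombe interval 21.9 to 28.0). Of the 485 peaks with a protein-coding TSS within 1000 bp, 455 (93.8%) had the summit upstream of it, beside 65.8% of the remaining peaks. The summit lay 100 to 1 bp upstream at 414 of 485 (85.4%) and at 47.9% of the remaining peaks. The median position was 41 bp upstream (interquartile range 62 to 24 bp upstream) among the strongest peaks and 25 bp upstream in the rest. The strongest peaks were also narrower, with a median width of 282 bp against 376 bp, and the part of width in the position of the summit was not tested. In the rest the median and the upper quartile were both 376 bp, so many of those peaks had exactly that width. Whether that width was set in peak calling is not known. These intervals cover the counting of peaks only, and the signals, promoters and sequences of peaks are not replicates of a condition.

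**Figure D1:**
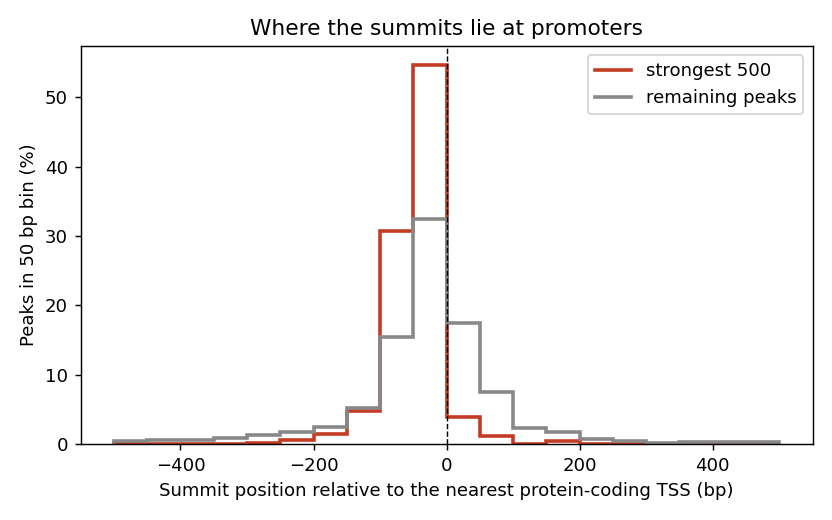
Position of the summit relative to the nearest protein-coding TSS, in bins of 50 bp, as the percentage of the strongest peaks (red) and of the remaining peaks (grey) with such a TSS within 1000 bp; bins from 500 bp upstream to 500 bp downstream are drawn, and negative positions are upstream. The bin of 50 to 1 bp upstream holds 54.6% of the strongest peaks and 32.5% of the rest.

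The BEAF-32 consensus and the palindrome ATCGAT, which overlaps it, differed most between the strongest peaks and the rest among the 9 motifs searched. CGATAA or CGATAG, on either strand, lay within 50 bp of the summit at 375 of 500 peaks (75%, 71.0 to 78.7) and at 33.4% of the remaining peaks, 41.6 points apart (37.3 to 45.5). Windows of the same length around all 19275 promoter positions held it in 17.0% of cases. These windows, called all promoter windows below, were centred on the protein-coding TSS and not on a summit. Most summits lay upstream of the TSS, so the windows of peaks and of all promoters cover different positions. The letters of these words in reversed order, which keep their base composition, occurred at 26.0% and 13.4%; a stretch such as CGATAGC matches both. Among promoter peaks alone the shares were 75.3% and 36.4%. The GC content of the windows had the same median, 44.6%, in both sets.

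TATCGATA, the DREF consensus, lay at 157 of the strongest peaks (31.4%, 27.4 to 35.7) and at 13.2% of the rest, beside 4.48% of all promoter windows. Its matches overlap those of CGATAA and CGATAG whenever an A or G follows or a T or C precedes it, and 148 of the 157 held both. Without TATCGATA, CGATAA or CGATAG still occurred at 45.4% of the strongest peaks and 21.3% of the rest. ATCGAT, which is part of TATCGATA, occurred at 70.0% and 25.7%, 44.3 points apart (39.9 to 48.4), and at 11.1% of all promoter windows. ATCGAT overlaps CGATAA and CGATAG wherever AT precedes CGATAA or CGATAG, and it was also found at 50 of the 125 strongest peaks without either (40%), against 6.97% of the remaining peaks without them.

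Many of the strongest peaks held more than 1 match. Overlapping matches were counted separately, so 1 stretch such as CTATCGATAA counts as 2. TATCGATA lay together with CGATAA or CGATAG at 148 of the 500 peaks, and separate sites were not counted. Of the 500, 208 (41.6%) held 2 or more matches to CGATAA or CGATAG, beside 15.5% of the rest, and 94 (18.8%) held 3 or more, beside 4.44%. Matches on both sides of the summit were present at 119 (23.8%) and at 6.29% of the rest. Among all peaks without a match, 4.50% were in the strongest 500. With 1, 2 and 3 or more matches, the share was 18.9%, 20.5% and 34.7%. The intervals for 1 and 2 matches, 16.4 to 21.7 and 17.3 to 24.1, overlapped, while those for 0 and for 3 or more matches did not overlap any other. spin, a lysosomal efflux transporter, had 6 matches, the count at SMC1, a cohesin subunit, was 4, and that at Sumo, the ubiquitin-like modifier, was 3.

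**Figure D2:**
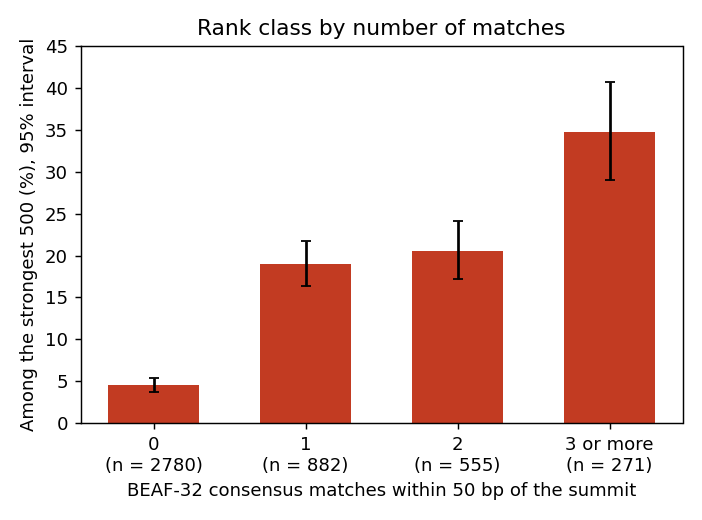
Percentage of peaks that belong to the strongest 500, by the number of matches to the BEAF-32 consensus (CGATAA or CGATAG, either strand) within 50 bp of the summit. Overlapping matches count separately. Bars start at 0 and whiskers are exact 95% binomial intervals. The share was 4.50% of 2780 peaks without a match and 34.7% of 271 peaks with 3 or more.

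Most matches lay just upstream of the gene start. At the strongest peaks the 705 matches had a median distance of 21.5 bp from the summit, and 586 of 695 with a coding TSS nearby (84.3%) lay upstream of that TSS. Their median position was 32.5 bp before the TSS, and 54.8% read CGATA on the strand of the gene. The matches of the remaining peaks had a median distance of 20.5 bp from the summit, with 81.4% upstream of the TSS and 51.1% on the strand of the gene. Within 100 bp upstream of the TSS lay 78.4% of the matches at the strongest peaks and 72.0% of those in the rest.

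The share with the consensus fell along the list without a step at rank 500. In successive groups of 100 strongest peaks it was 82%, 76%, 78%, 72% and 67%. In ranks 501 to 1000 it was 65.4%, in ranks 1001 to 1500 53.0%, and in the last 488 ranks 11.3%. TATCGATA was as frequent in ranks 501 to 1000 (31.6%) as in the first 500 (31.4%), and the divergent promoter share was higher there, at 38.2% (33.9 to 42.6) against 31.8%, with overlapping intervals. The contrast of these features with the whole of the rest therefore includes ranks that resembled the strongest peaks.

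**Figure D3:**
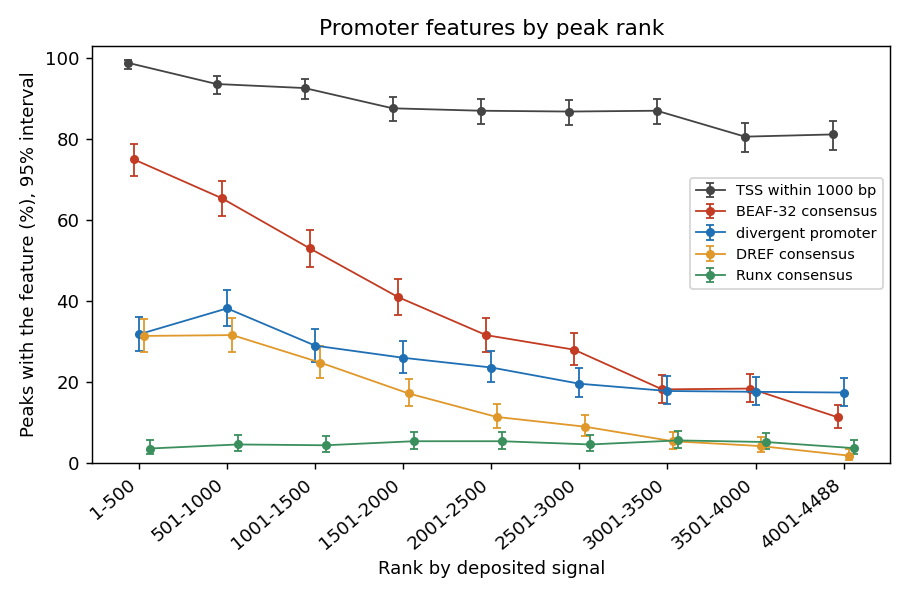
Percentage of peaks with each feature in successive rank classes of the conservative list, ordered by deposited signal; points are shares and whiskers exact 95% binomial intervals. From the first to the last class the BEAF-32 consensus went from 75% to 11.3% and the DREF consensus from 31.4% to 1.84%, while the Runx consensus stood at 3.60% in the first.

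The Runx consensus, the recognition sequence of the DNA-binding partners of Bgb, was not more frequent at the strongest peaks. AACCACA or AACCGCA or GACCACA or GACCGCA, on either strand, lay within 50 bp of the summit at 18 of 500 peaks (3.60%, 2.15 to 5.63), at 4.87% of the rest and at 4.97% of all promoter windows. The difference from the rest was -1.27 points (-2.76 to 0.85). CG11964 (1312), eIF3f1 (1230), CG15356 (1048), Spn (957) and Asator (694) were the strongest of the 18, and 14 of the 18 also held CGATAA or CGATAG. The absence of these letters from a window of 101 bp says nothing about where Runt domain proteins were.

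Other promoter sequences differed less or in the other direction. GGTCACAC, the M1BP consensus, was found at 26 peaks (5.2%) and at 4.21% of the rest, with an interval of the difference that included 0 (-0.77 to 3.37), and at 4.67% of all promoter windows. It was led by CG15356 (1048), CrebB (999), Bin1 (920), cyst (894) and Top1 (869), and 22 of the 26 held CGATAA or CGATAG as well. GAGAG, part of the GAGA factor consensus, was less frequent at the strongest peaks, 7.80% against 14.2% (difference -6.39 points, -8.72 to -3.51), beside 12.7% of all promoter windows. The E-box CAGCTG (9.0% against 8.15%), CACGTG (1.40% against 1.63%) and the Zelda word CAGGTA (2.00% against 2.33%) had differences whose intervals included 0, and occurred in 8.77%, 1.82% and 2.00% of all promoter windows.

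The TATA box and the Initiator were scarcer at the strongest peaks than in the rest. A TATA box, TATAAA or TATATA on the gene strand starting 40 to 20 bp before the TSS, was present at 5 of 485 peaks (1.03%, 0.34 to 2.39), at 3.75% of the rest and at 9.15% of all protein-coding TSSs. The 5 were spin (1089), CG2765 (626), Vha16-1, a proton pump subunit (487), RNaseX25 (486) and CG31698 (430). The summit of the last lay 809 bp downstream of its TSS, inside no protein-coding gene and nearest to a tRNA. An Initiator, TCAGT or TCATT within 10 bp of the TSS, was present at 32 of 485 (6.60%, 4.56 to 9.19), at 16.4% of the rest and at 17.4% of all TSSs. At peaks without CGATAA or CGATAG the Initiator shares were 11.3% and 21.6%, and with them 5.14% and 7.91%. The TCT initiator known from ribosomal protein genes, CTTTC or CTTTT or TCTTT within 5 bp of the TSS, was found at 8 peaks (1.65%) and 2.30% of the rest. That window found it at 16.0% of all annotated TSSs of cytosolic ribosomal protein genes and a window stretched to 20 bp downstream, chosen after seeing the data, at 58.7%, so the narrow count misses many. In the stretched window the shares were 8.45% and 9.54%, and the interval of the difference included 0.

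Divergent gene pairs were common among the strongest peaks, and the summit was usually between the pair of starts. A divergent promoter, with TSSs at most 1000 bp apart and both within 500 bp of the summit, was present at 159 of 500 peaks (31.8%, 27.7 to 36.1) and at 23.7% of the rest, 8.13 points apart (3.98 to 12.5). The summit lay between both TSSs at 146 of the 159 (91.8%, 86.4 to 95.6) and at 69.8% of the divergent promoters in the rest. The starts were a median of 243 bp apart at the strongest peaks and 254 bp in the rest. The share with CGATAA or CGATAG was 73.0% at divergent and 76.4% at other promoters of the strongest peaks, against 48.5% and 31.9% in the rest.

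The 5 strongest divergent peaks paired genes of different kinds. MESK2 and TAF1C-like shared a summit with a signal of 1962 (replicate 1 1161, replicate 2 806). The next, with 1890 (1157 and 732), lay between Rpn6, a subunit of the proteasome lid, and ave. Daxx was paired with Sec61alpha, the channel of the endoplasmic reticulum translocon, at 1641 (936 and 710). RpL32, part of the large ribosomal subunit, was paired with CG7943 at 1607 (965 and 643), and Ube3a, a ubiquitin ligase, with CG7600 at 1302 (867 and 424). Which gene of a pair the binding concerns cannot be told from peak positions.

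The strongest peaks lay at genes of many functions, most of them in none of the lists used. With a summit within 500 bp of a TSS counted as a target, the strongest peaks had 657 target genes of 13968 protein-coding genes (4.70%), and all conservative peaks had 4266 (30.5%). Among the 500 peaks, 310 had 1 target, 151 had 2, 15 had 3 or more and 24 had none. Of the 657 targets, 107 belonged to one of 19 lists defined by gene symbols and 550 to none of them. The share in a list was 16.3% (13.5 to 19.3), beside 12.4% (11.3 to 13.5) of the 3609 genes with only a weaker peak and 8.97% of all protein-coding genes. The start nearest to the summit belonged to the target itself for 475 of the 657, and the others shared a peak with a nearer gene. Among those others are eIF3a, eIF4E6, GlnRS, Prosbeta1, COX6B, levy and Nelf-A, which are named below. Genes known only by a CG number were targets in 149 of 6104 cases (2.44%). They made up 22.7% of the 657 targets and 29.8% of those with only a weaker peak, -7.11 points apart (-10.5 to -3.45). Among genes with any peak, 15.4% had one of the strongest 500, which is the share against which the lists below are read.

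Genes of protein synthesis were among the targets, with shares above 15.4% of their bound genes but intervals that included it. Cytosolic ribosomal protein genes had one of the strongest peaks in 13 of 86 cases, 22% (12.3 to 34.7) of the 59 with any peak. They were led by RpL32, RpS2 (1233, 706 and 535 in the replicates), RpS30 (799) and RpS29 (738). Mitochondrial ribosomal protein genes had 7 of 75, led by mRpL4 (1027), mRpL33 (793), mRpL17 (783) and tko (718), of which mRpL33 and mRpL17 shared their peaks with the nearer starts of norpA and Tudor-SN. Translation factors had 8 of 56, with eIF3f1, eIF2gamma (1033), which carries the initiator tRNA, eIF3a (890) and eIF4E6 (680), a cap-binding protein. They were 26.7% (12.3 to 45.9) of the 30 with any peak. At 7 of the 8 the peak held CGATAA or CGATAG, as it did for 501 of all 657 targets (76.3%). Aminoacyl tRNA synthetases, which charge tRNAs, had 3 of 32, TrpRS (988), GlnRS (740) and GluProRS (455), all at divergent promoters, as were 50.7% of all targets.

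Genes of protein turnover and folding followed. Proteasome genes had 5 of 32, Rpn6, Prosalpha7 (1197), a subunit of the core particle, Rpn10 (874), a ubiquitin receptor, Rpn2 (501) and Prosbeta1 (437). Ubiquitin enzymes had 7 of 50, each with CGATAA or CGATAG at its peak (76.3% of all targets), led by STUB1 (1456), Ube3a, Cul4 (926), a cullin scaffold, and Usp7 (729), a deubiquitinase. Chaperones had 6 of 41, led by Hsp110, P58IPK (701), DnaJ-1 (699) and mrj (544), and 31.6% (12.6 to 56.6) of the 19 chaperone genes with a peak had one of the strongest. The intervals of these lists all included the 15.4% of all bound genes.

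Vesicle traffic and autophagy was the only one of the 20 lists whose interval lay above that share. It had 20 of 140 genes, or 27.0% (17.4 to 38.6) of the 74 with any peak, and made up 3.04% of the targets of the strongest peaks against 1.50% of the targets of weaker ones, 1.55 points apart (0.39 to 3.20). Sec61alpha, Snx27 (1431), a sorting nexin of recycling from endosomes, Sec61beta (1108), the translocon partner of Sec61alpha, and Rab30 (1043), a small GTPase, led it. The list was drawn by gene symbol and so takes in translocon genes such as Sec61alpha and Sec61beta. Its interval without them was not computed. Further members of the list included Rab21 (624), Sar1 (619), Rab2 (594), Rab7 (593), Vps29 (463) and Vps35 (434), the last pair subunits of retromer. At 13 of the 20 the peak lay at a divergent promoter, and at 7 another gene had the nearest start, such as Daxx for Sec61alpha and Caper for Rab30. Over all targets, 50.7% were at a divergent promoter. Of the 20 lists, this one and the CG genes (12.2%, 10.4 to 14.1) had intervals that excluded the common share, which describes them and is not evidence that they stand apart.

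Genes of the mitochondrion, of RNA processing and of the nucleus were also targets, with intervals that included the common share. Oxidative phosphorylation genes had 8 of 90, led by COX6B (908), UQCR-14 (892), levy (812) and ATPsynF (650). Splicing and exon junction genes had 7 of 43, led by Pym (1811, 1114 and 693 in the replicates), which dismantles exon junction complexes, and SmD3 (1009), SmE (748), both core proteins of spliceosomal particles, and Sf3a1 (747). Its exon junction partner mago (446) was a target too. Nuclear pore genes had 3 of 25, Nup358 (988), Nup153 (646) and Nup50 (497). The peaks of Nup153 and Nup50 lay nearer to the starts of CG9784 and Asap. RNA polymerase II machinery had 4 of 77, MED7 (534), Taf9 (519), CycT (492) and Nelf-A (474), which is 8.51% (2.37 to 20.4) of its 47 genes with a peak. Replication and cell cycle genes had 5 of 56, led by CycB (821), a mitotic cyclin, PolA1 (532), geminin (512) and Cdc50 (451). Cdc50 entered this list by its symbol alone, and its peak lay nearer to the start of rngo.

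The lists of chromatin and developmental regulators differed in their share of targets, and S alone had a signal above 620. Polycomb and trithorax genes had 5 of 29, all between 456 and 568: kis (568), a chromatin remodeller, Utx (540), a histone demethylase, Scm (514), Asx (505) and Pc (456), which reads methylated histone H3. Insulator and core promoter factors had 1 of 16 (6.25%), BEAF-32 itself, at 620 (345 in replicate 1, 310 in replicate 2), with CGATAA or CGATAG in its window. An antisense RNA start lay 10 bp from that summit and the start of BEAF-32 16 bp from it. Developmental transcription factors had 1 of 59 (1.7%), svp, a nuclear receptor of cell fate, at 463. Notch, EGFR, Wnt and Dpp signalling had 4 of 47 (8.51%), or 12.1% (3.40 to 28.2) of the 33 with any peak. The 4 were S (939), whose peak lay nearer to ast, mib1 (524), a ubiquitin ligase of Notch ligands, mam (486), a Notch co-activator, and Su(H) (465), the DNA-binding factor of the Notch pathway. None of 179 chemosensory receptor genes and none of 121 cuticle protein genes was a target of the strongest peaks, and 5 and 2 of them had any peak.

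**Figure D4:**
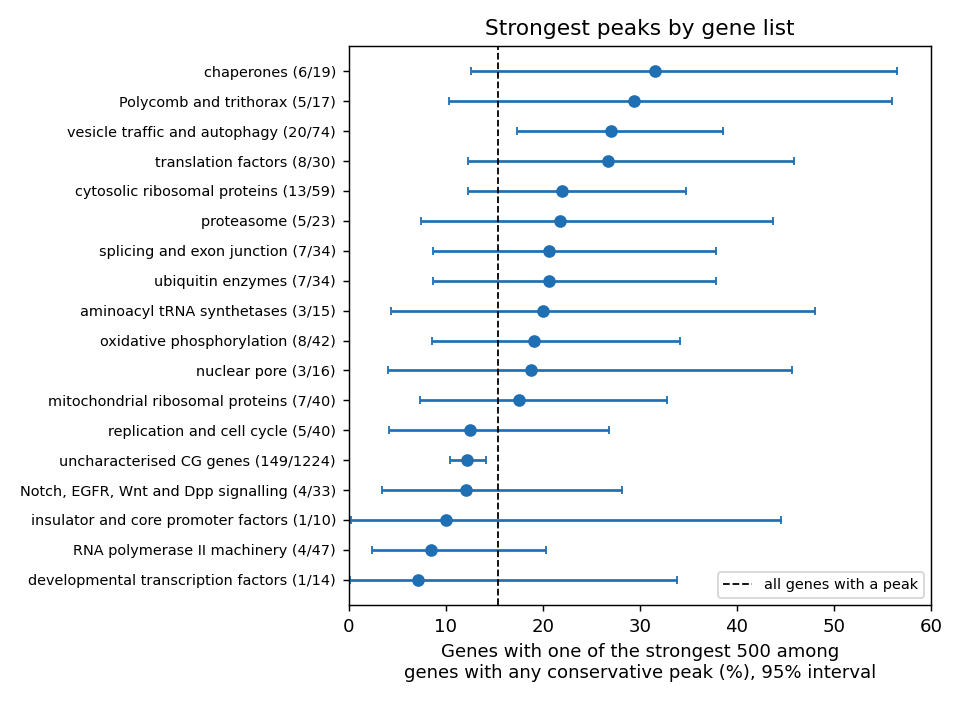
Percentage of genes with one of the strongest 500 peaks among genes of each list with any conservative peak within 500 bp of a TSS; points are shares, whiskers exact 95% binomial intervals, and numbers in brackets the counts, for lists with at least 10 such genes. The dashed line marks the 15.4% of all genes with a peak, which lies inside the interval of every list drawn except vesicle traffic and autophagy (above) and uncharacterised CG genes (below).

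Single genes below the first 20 ranks covered structure, signalling and metabolism. The gene nearest to rank 21 was hts, the fly adducin, which links the membrane skeleton to actin (1262), followed by Sox14, a transcription factor of the ecdysone response (1261), lost (1243), CG30349 (1234), RpS2 and eIF3f1. SMC1 (1223), Scsalpha1, an enzyme of the citric acid cycle (1209), CG8613 (1207), CtsF, a cathepsin protease (1198), Prosalpha7, NAT1 (1194), DhpD, CG11030 (1171) and aux, which uncoats clathrin vesicles (1160), came next. Sumo (1151), Nrg, a neural adhesion molecule (1109), Sec61beta, CG9135 (1106) and Pcif1 (1101) closed ranks 21 to 40. The summit of Sox14 lay 251 bp upstream of its TSS, while the others of ranks 21 to 40 lay 3 to 137 bp upstream. PRL-1 was the one gene with summits of 2 of the strongest peaks within 500 bp of its starts, rank 95 (849), nearest to EndoGI, and rank 357 (498).

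The peaks without CGATAA or CGATAG were slightly weaker and their summits were less tightly placed. These 125 had a median signal of 534, against 586 for the 375 with a match, and 34.4% against 30.9% were at divergent promoters. Their summits lay upstream of the TSS at 89.6% of promoters and 100 to 1 bp upstream at 69.6%, against 95.1% and 90.3%. At 42 of the 125 (33.6%) a match appeared when the window was widened to 100 bp either side. None of the 9 motifs was found at 58 peaks, the strongest being Rpn6 (1890), CG30015 (1298), Sox14 (1261), CG30349 (1234) and DhpD (1182).

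A small number of the strongest peaks lay away from coding promoters or nearest to an RNA gene. At 15 peaks every protein-coding TSS was over 1000 bp away, and 9 of these had an RNA gene TSS within 1000 bp. For 16 peaks the nearest TSS was that of an RNA gene, among them 5 tRNA, 7 long or antisense non-coding RNA, 2 snRNA and 2 snoRNA genes. Some of the 16 also had a coding TSS within 1000 bp. The 3988 remaining peaks had 143 nearest to tRNA, 178 to non-coding RNA, 8 to snRNA and 14 to snoRNA genes. A protein-coding TSS was nearest at 484 of the 500 and at 3639 of the 3988. The strongest of the 16 was at the 7SK small nuclear RNA, an inhibitor of the elongation kinase P-TEFb, with 969 (536 and 397). None of the 9 tRNA, snRNA and snoRNA peaks held CGATAA or CGATAG. RNA genes of these families occur in near-identical copies, so reads at them may be assigned uncertainly. The 6 peaks over 1000 bp from every TSS were nearest to CG15468 (728), ArgRS (631), CG3726 (575), CG16989 (527), org-1 (523) and CG42709 (429), at distances of 1756 to 5001 bp, and 5 of them were on X. Of the 6, 4 lay inside a protein-coding gene. The peaks near CG3726, CG16989 and org-1, a T-box transcription factor, lay inside those genes and held no CGATAA or CGATAG. The peak near CG42709 lay inside CG42709 and Atg1 and held it, as did those near CG15468 and ArgRS, which lay inside no protein-coding gene.

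Both replicates contained nearly all of the strongest peaks. All 500 overlapped a peak of the thresholded list of replicate 1 and 499 one of replicate 2, by at least 1 bp. The shares in the rest were 89.6% and 63.7%. The list had already passed a comparison of both replicates and was ranked by its signal, so these counts and ranks are descriptions and not independent support. In replicate 1 their signals ran from 198 to 1161 with a median of 353, and in replicate 2 from 102 to 806 with a median of 222. Signals carry no stated scaling between libraries, so the ratio of the replicates is a property of the deposited values. Replicate 1 was higher at 494 of 499 (99%), with a mean log2 ratio of 0.68 ± 0.27 (SD over 499 peaks). In the rest it was higher at 91.7%, with a mean of 0.69 ± 0.52 (SD over 3954 peaks). Of the 500, 463 were among the first 500 of the conservative list by the signal of replicate 1 alone, 439 by that of replicate 2 alone, 404 by both and 2 by neither, of which 1 had no replicate 2 peak.

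Peaks that departed from the common ratio were few. The highest log2 ratios of replicate 1 to replicate 2 were at mub (489 and 118), an RNA-binding protein, svp (362 and 102), DhpD (870 and 301), Sar1 (443 and 165) and CG30122 (352 and 136). svp, ranked 414 by the combined signal, was at rank 1183 of the conservative list by replicate 2 alone. The lowest were a summit near a glutamate tRNA, with CG32462 the nearest coding gene (198 and 256), CG45049 (214 and 231), RpS23 (214 and 227), ATPsynCF6 (292 and 301) and osi (248 and 252), where replicate 2 was the higher. The peak at an arginine tRNA on chromosome 2R had a signal of 480 and 256 in replicate 1, and no overlapping peak in replicate 2.

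**Figure D5:**
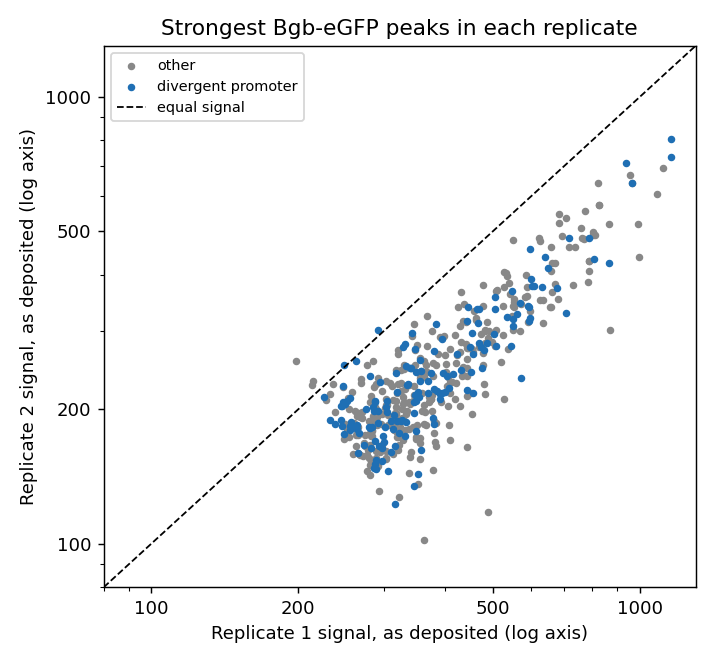
Deposited signal of each of 499 strongest peaks in replicate 1 (horizontal) and replicate 2 (vertical), both on log axes and without rescaling; blue points are divergent promoters, grey points all others, and the dashed line marks equal signal. All but 5 points lie below the line, and divergent promoters spread over the whole range of signals.

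The border of the set is arbitrary in signal. The signal, which chose the peaks and is given as a description, ran from 428 to 1962 with a median of 574 (interquartile range 486 to 757), against a median of 131 in the rest. The 500 peaks were 11.1% of the list and held 34.5% of its summed signal. Just inside were CG45049 (430), CCT7 (430), CG31698 (430), Dpm3 (429), CG8547 (429), the peak near CG42709 (429), Rrp46 (429), Dlip2 (429), RpLP0-like (429) and CG6294 (427.6). Just outside were grau (427.5), SkpA (427), Efa6 (427), eIF3c (426), ATbp (426), mEFTs (425), ScsbetaA (425), a peak near CG6465 (425), CG3308 (425) and Ndfip (424).

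By chromosome arm the strongest peaks were spread over the genome. Arm 3R held 25.2% of them, 2R 22%, 2L and X 18.2% each, 3L 15.8% and chromosome 4 0.60%. Of protein-coding genes, 3R held 24.5%, 2R 20.4%, 2L 19%, X 15.7%, 3L 19.6% and chromosome 4 0.57%. The interval for 3L, 12.7 to 19.3, lay just below its share of genes, and that for X, 14.9 to 21.9, included its share. Of the remaining peaks, 20.2% were on 3L and 16.9% on X. The summits were separate, at least 927 bp apart, and 85 of 500 had another of the strongest summits within 10000 bp.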

How the data were processed

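ChIP-seq peak lists of 2 replicates of whole embryos were analysed. The authors deposited a signal value and a −log10 q-value for each peak, on dm6 per the labels; aligner, peak caller and scaling: not given in the sources used here. Signals ranked the peaks and the −log10 q-value was not used. The conservative list passed the comparison of both replicates by irreproducible discovery rate. Replicate signals were taken from the strongest overlapping peak (at least 1 bp) in each replicate's own ranked list, in place of the series' ranked list, whose replicate columns carry no sample names. Read depth is unknown. No sample comparison is possible with 1 group, so shares have exact (Clopper-Pearson) 95% intervals and differences Newcombe intervals, with no p-value. Genes came from Ensembl release 115 and sequence from RefSeq. Code was tested on simulated data. Genes were named by rank (21 to 40 and 491 to 510), by the strongest 4 per list or 5 per class, and by the 5 highest and lowest replicate ratios; others were named after their values were seen. The members, lists and tests were chosen with earlier results of these data known. Alternatives covered other lists, set sizes and windows, each replicate alone, and promoter and TSS definitions. The tools were Python 3.11.15 with scipy 1.17.1, pandas 2.3.3, numpy 2.4.6 and matplotlib 3.10.9.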

Additional observations from a re-analysis of the deposited data

How the results depend on the processing

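Across 29 results and 235 alternatives, 217 values stayed inside the 95% interval of the reported value, 18 moved outside it and 0 reversed a difference whose interval excluded 0; the difference from the rest kept its sign in 223. The promoter share was 97.2% to 98.6% with one replicate left out, 96.2% for the first 1000 peaks, 97.2% with a TSS within 250 bp and 97.0% with protein-coding TSSs only. The share with CGATAA or CGATAG was 79.2% for the first 250 peaks, 70.2% for the first 1000, 55.0% within 25 bp of the summit and 83.4% within 100 bp, and that of TATCGATA 18.4% and 38.0% in those windows. Runx matches reached 6.80% within 100 bp. With every TSS of the gene within 1000 bp, the Initiator share was 9.28% and the TCT share 3.30%; with the window stretched to 20 bp downstream the TCT share was 8.45%. Of the targets of the first 250 peaks, 0.0% were RNA polymerase II machinery, Polycomb and trithorax or developmental transcription factor genes, and the last list ranged from 0.0% to 0.463% with one replicate left out. The interval of the difference from the rest came to exclude 0 in 9 alternatives and to include it in 1, the vesicle genes for the first 250 peaks (-0.04 to 3.89 points). The 9 were the Runx consensus without replicate 1 (-3.63 to -0.11), GGTCACAC within 25 bp (0.33 to 3.87), the TCT initiator for the first 1000 peaks (-2.08 to -0.15), translation factors without replicate 2 (0.17 to 2.11) and for the first 1000 (0.19 to 1.54), chaperones with targets within 1000 bp (0.18 to 1.81) and by nearest TSS (0.16 to 2.33), Polycomb and trithorax by nearest TSS (0.07 to 2.09) and RNA polymerase II machinery for the first 250 (-1.58 to -0.0062). No paired analysis was possible because there is 1 group. Unknown read depth, unscaled signals and the lack of a control library in these comparisons limit what the ranking can show.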

Other observations

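One strong peak lay outside the conservative list. In the second series list, a peak on chromosome 4 (696778 to 697067, dm6), 752 bp upstream of the nearest protein-coding TSS, that of ey, the fly Pax6 gene of eye development, had a signal of 705. That signal would rank among the strongest 500. In the list of replicate 1 alone it had 415 at rank 174, and it was the only one of that replicate's strongest 500 peaks to overlap no conservative peak. All of the strongest 500 peaks of replicate 2 overlapped a conservative peak.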
